A study of Mus musculus with 12 samples.

Results

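The comparison concerned the amygdala of mice that were immobilized before fear conditioning, set against mice that were fear conditioned without it. It used 8 of the 12 arrays in the series, chosen by title: 4 named for immobilization followed by fear conditioning (IMO_FC) and 4 named for fear conditioning (FC). All came from male C57Bl/6J mice aged 10 weeks, in both groups 2 h after fear conditioning, and from bilateral amygdala taken with a 1 mm punch. Home-cage mice (HC, 4 arrays) of the same strain, sex and age, with no treatment named, entered the fit for its spread and are given as a further level. The labels do not give the length of the immobilization or its interval to conditioning, and the series' design text speaks of fear expression and extinction where titles speak of conditioning. Nothing says whether each array is 1 animal or a pool, so p-values measure the spread between these samples only.

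In fear conditioning an animal learns that a neutral cue predicts an aversive event. Glutamatergic neurons of the basolateral amygdala and GABAergic neurons of the central amygdala take part in storing and expressing that memory, and neuropeptides such as opioids, tachykinins and PACAP tune them. Immobilization is a severe stressor that releases glucocorticoids, whose receptor turns on genes such as Fkbp5, Per1 and Tsc22d3. Activity-dependent genes such as Fos and Arc are transcribed within minutes of strong neuronal activity.

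IMO_FC 1 to 4 had 39.0%, 50.1%, 49.6% and 50.7% of the 45281 probes detected, FC 1 to 4 had 11.7%, 45.1%, 15.9% and 49.0%, and the HC arrays had 47.5% to 50.7%. Results are therefore given first for 4 IMO_FC arrays against FC 2 and FC 4, then with all 8 arrays. IMO_FC 1 and FC 2 also stood apart: over the tested probes the normalized values of IMO_FC 1 had Spearman's rho of 0.736 to 0.757 with the 9 other arrays, those of FC 2 0.835 to 0.869 with the 8 others than IMO_FC 1, and those 8 among themselves 0.884 to 0.952. Values without IMO_FC 1 or without FC 2 are given beside results that they move strongly, and the plot of list medians shows every list without each. The median SD of a probe within IMO_FC was 0.441 log2 units, and 0.208 without IMO_FC 1. Markers of the tissue were present on all 10 of these arrays: Gad1 and Slc32a1, of GABAergic neurons, lay between 10.82 and 11.54 normalized log2, and Slc17a7, the vesicular transporter of glutamatergic neurons, between 8.58 and 9.44. Ttr, a marker of choroid plexus, lay at 5.92, 7.37, 8.21 and 5.67 in IMO_FC 1 to 4, at 4.52 and 9.50 in FC 2 and FC 4 and between 7.75 and 11.61 in HC. Its level thus varied within FC and between groups, and its part in other differences was not tested.

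**Figure D1:**
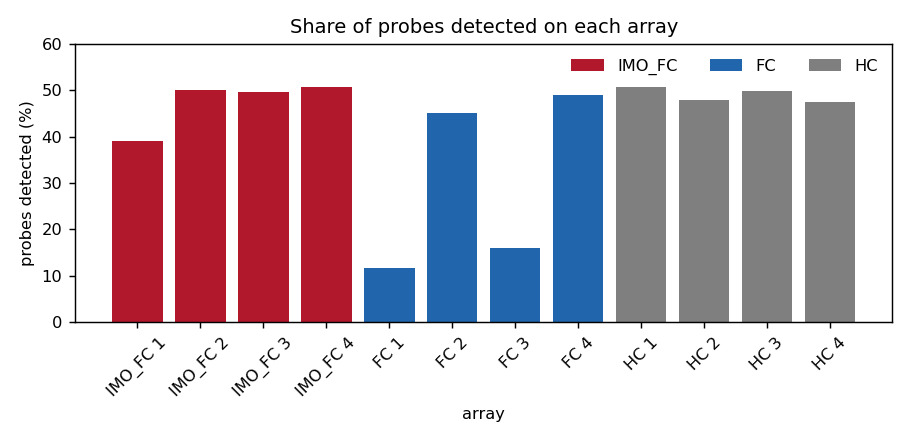
Share of the 45281 probes with a detection p under 0.05 (bars, percent) on each array, with IMO_FC first, then FC and HC. IMO_FC 1 reached 39.0%, FC 1 and FC 3 11.7% and 15.9%, and the other 9 arrays 45.1% to 50.7%.

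No probe tested under the stated filter passed between IMO_FC and FC. Of 20862 probes detected on at least 4 of the 8 arrays, limma called 0 (0%) at an adjusted p under 0.05 with FC 2 and FC 4 as the FC group, and the lowest adjusted p was 1. At an unadjusted p under 0.05 there were 729 probes (3.49%), 368 (1.76%) higher and 361 (1.73%) lower in IMO_FC, where 1043 would be expected if no probe differed. By a gene's brightest probe, 5145 of 10713 genes (48%) had a positive difference and 5568 (52%) a negative one, with a median of −0.015 log2 units. The difference was under 0.5 log2 units either way for 79.5% of genes. With n = 4 and 2 the median standard error was 0.374, and only 4341 genes (40.5%) had a 95% interval within a 2-fold change either way. For the remaining genes a 2-fold difference in one direction or the other lies inside the interval. Fewer cells of a type and less RNA per cell cannot be told apart in these whole-tissue samples.

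**Figure D2:**
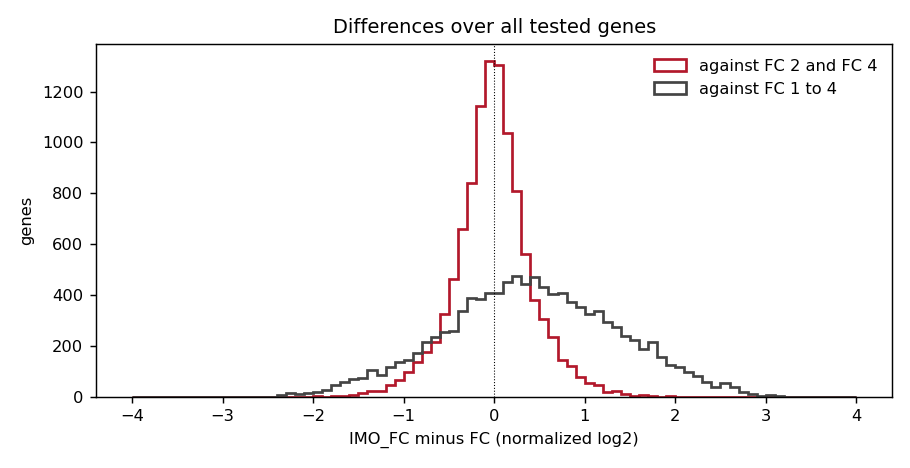
Histogram of the difference IMO_FC minus FC (x, normalized log2; y, number of genes) over 10713 genes, against FC 2 and FC 4 (red) and against FC 1 to 4 (grey). The first lies around −0.015 and the second is wider, with a median of 0.40.

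The requirement of detection on 4 of the 8 arrays treats the groups unequally, because a transcript present only in FC can hardly meet it when FC 1 and FC 3 detect so little. There were 91 probes detected on all 4 IMO_FC arrays and on neither FC 2 nor FC 4, all of them tested and none called. There were 108 probes detected on FC 2 and FC 4 and on no IMO_FC array, of which 1 was tested. With probes detected on at least 2 of the 6 arrays compared, 24526 were tested and limma called 2 (0.00815%), Cd180 and Ppp4r1l-ps, both lower in IMO_FC, and 902 (3.68%) had an unadjusted p under 0.05.

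Cd180 encodes a surface receptor of B cells, macrophages and microglia that is related to the Toll-like receptors and, with its partner Ly86, restrains signalling through Tlr4. Cd180 (chromosome 13) stood at 4.34, 4.32, 4.65 and 4.37 normalized log2 in IMO_FC 1 to 4, against 7.60 and 7.46 in FC 2 and FC 4 and 4.31 to 4.46 in HC. The deposited signals were 37.3, 38.7, 71.4 and 53.5 in IMO_FC, 221 and 226 in FC 2 and FC 4, and 34.6 to 61.7 in HC. The probe was detected on FC 2 and FC 4 and on none of the other arrays, so that the FC arrays alone were high. On FC 1 and FC 3, where little was detected at all, the signals were 36.5 and 57.7. The difference was −3.11 ± 0.219 log2 units (SE, n = 4 and 2), with adjusted p = 0.000775 by limma. The probe passed the wider filter only through the FC arrays, where it was high, so the filter itself in part fixed this outcome. In the fit with no detection filter, over all 45281 probes, its adjusted p was 5.43e-05 by limma (SE 0.106). The difference there was the same −3.11, and only the SE was smaller. That fit shares its estimate of spread with probes outside the wider filter, so its p is not separate support. Since no IMO_FC or HC array detected it, its level there was not above background and no fold is given. The size of the difference also depended on the processing. With the wider filter it was −1.98 with the authors' values and −1.82 without background correction.

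A second Cd180 probe gave a like picture, at 4.42, 5.88, 4.79 and 4.47 in IMO_FC 1 to 4, against 7.18 and 7.31 in FC 2 and FC 4 and 4.35 to 4.61 in HC. It was detected on 1 IMO_FC array, and its difference of −2.36 ± 0.379 did not pass limma's test (adjusted p = 0.476). Leaving out IMO_FC 2, the IMO_FC array nearest to FC, took it to −2.67 (adjusted p = 0.0167 by limma). The outcome for this probe thus hung on 1 array. A further Cd180 probe was detected on neither FC 2 nor FC 4 and gave 0.14 ± 0.221. With the same wider filter, the adjusted p of the first probe by limma lay between 0.00126 and 0.0352 when each array was left out in turn, at 0.0725 with the replicate number as a block and at 0.144 in a fit of the 6 compared arrays alone. The sign could not change in these, because both FC arrays lay far above every IMO_FC array. The call rests on 2 FC arrays, and it was lost in the last 2 of these settings.

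No gene of the microglia and complement list, tested under the stated filter, passed. Ly86 stood at 6.88, 5.42, 5.18 and 5.91 in IMO_FC 1 to 4, against 4.64 and 5.26 in FC 2 and FC 4, a difference of 0.90 ± 0.673 that did not pass (adjusted p = 1 by limma). Its probe was detected on all 4 IMO_FC arrays but on only 1 of FC 2 and FC 4. Of 16 tested microglia and complement genes 7 had positive and 9 negative differences, and the median was −0.15. Aif1, the microglial protein Iba1, differed by 0.13 ± 0.341. Of 24 probes for 10 genes of B cells and other white blood cells, Ly86 among them, 2 to 4 were detected on the IMO_FC arrays, 2 and 4 on FC 2 and FC 4 and 3 to 5 on the HC arrays. Ppp4r1l-ps, a pseudogene, stood at 4.36, 4.43, 4.36 and 4.41 in IMO_FC 1 to 4, against 6.44 and 6.13 in FC 2 and FC 4 and 4.34 to 4.48 in HC. Its difference was −1.90 ± 0.214 (adjusted p = 0.0388 by limma), or −1.10 with the authors' values, and it too passed the wider filter only through FC. That call was lost without IMO_FC 2, IMO_FC 3, IMO_FC 4 or FC 2, with the replicate block, in the fit of compared arrays alone, with the authors' values and without background correction (adjusted p = 0.146 to 1.00 by limma). A second Ppp4r1l-ps probe lay at 4.57 to 5.30 in IMO_FC, against 4.69 and 4.64 in FC 2 and FC 4, and was not called. Cd180, Ly86, the white blood cell genes and Ppp4r1l-ps were named after their values were seen.

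**Figure D3:**
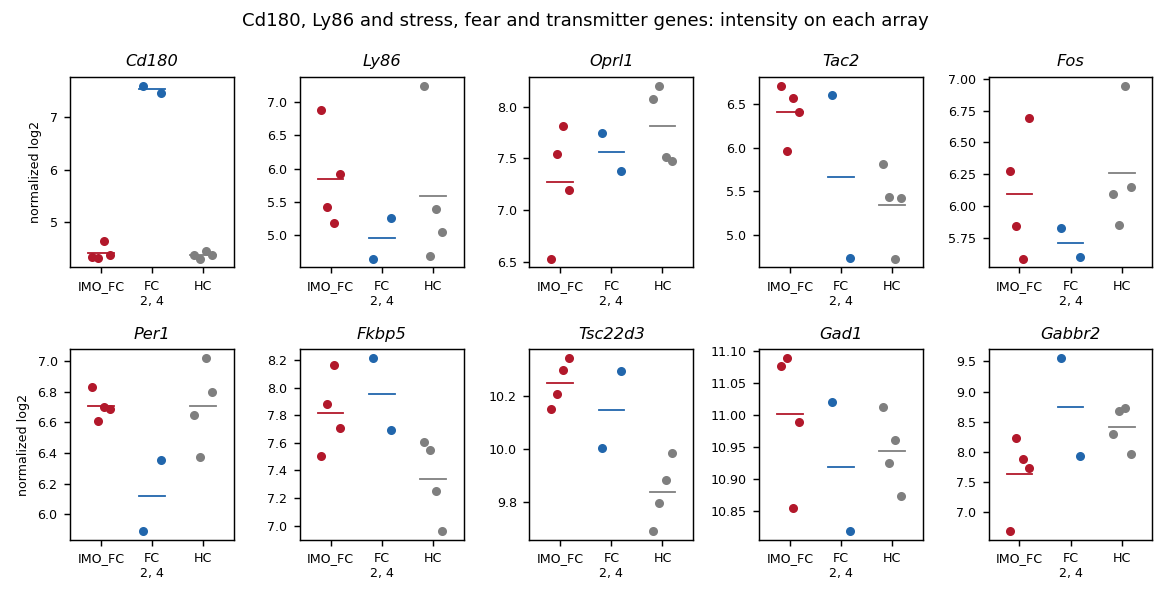
Normalized log2 intensity (y, a separate scale in each panel) of 10 genes on each array of IMO_FC, FC 2 and FC 4, and HC; points are arrays and lines are group means. Cd180 is at 7.60 and 7.46 in FC and between 4.31 and 4.65 on every other array shown. The IMO_FC and FC points of Per1 do not overlap either. They overlap for Ly86, Oprl1, Tac2, Fos, Fkbp5, Tsc22d3, Gad1 and Gabbr2.

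Among genes whose probe was detected on all 6 arrays and whose groups did not overlap, the 8 of smallest p in each direction were described, although none passed (adjusted p = 1 by limma for each). Groups did not overlap for 9.71% of all tested probes, and the values of these genes are a description. Probes with smaller p that some of the 6 arrays did not detect were passed over. The genes higher in IMO_FC were Nnat, Unc79, Onecut2, Pigu, Cadps2, Pdxdc1, Arid4b and Rrnad1, with differences of 1.18 to 1.65. Nnat, an imprinted gene for a small membrane protein of the endoplasmic reticulum, stood at 6.25, 6.99, 6.87 and 6.32 in IMO_FC 1 to 4, against 5.25 and 5.07 in FC 2 and FC 4 (1.45 ± 0.307). HC lay at 6.43 to 7.11, with IMO_FC. Its 2 brighter probes differed by 0.20 each. Unc79, a subunit of the sodium leak channel complex, stood at 7.08, 6.90, 6.99 and 7.13 in IMO_FC, against 5.52 and 6.07 in FC, and HC lay at 6.95 to 7.58. The IMO_FC arrays were close to each other and to HC, and FC was low, but a dimmer second probe gave −0.21.

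Pigu, part of the transamidase that puts GPI anchors on proteins, stood at 8.35, 7.23, 7.51 and 7.41 in IMO_FC, against 6.52 and 5.98 in FC 2 and FC 4 and 6.64 to 6.76 in HC. Here IMO_FC lay above both other groups. Cadps2, which primes dense-core vesicles for release, gave 1.23 ± 0.294 on the probe described, but −0.05 on its much brighter first probe. A further probe, as bright as the one described, gave −1.39 ± 0.536. Of 4 Pdxdc1 probes 2 gave 1.51 and 1.41 and 2 gave 0.28 and 0.16. Arid4b, a subunit of the Sin3 corepressor complex, gave 1.18 ± 0.314 and −0.09 on a dimmer probe, and the transcription factor Onecut2 1.33 ± 0.302.

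The genes lower in IMO_FC were Ctage5, Hopx, Smarcd1, Tax1bp3, Scn1a, Carf, Nol12 and Tmem62, with differences of −1.80 to −1.04. Scn1a encodes a voltage-gated sodium channel that fast-spiking inhibitory neurons depend on. It stood at 5.65, 5.62, 5.68 and 4.88 in IMO_FC 1 to 4, against 7.43 and 6.31 in FC 2 and FC 4 and 5.75 to 6.56 in HC (−1.41 ± 0.384). All IMO_FC arrays were below both FC arrays, and FC 2 was the high one. Carf, a calcium-responsive transcription factor known for its action on the Bdnf promoter, stood at 6.13, 6.79, 6.75 and 6.60 in IMO_FC, against 7.67 and 7.55 in FC and 6.76 to 7.45 in HC (−1.04 ± 0.285). Smarcd1, a subunit of the BAF chromatin remodelling complex, gave −1.80 ± 0.454, with −2.04 on a dimmer probe and −0.52 on its brightest.

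Hopx, a homeodomain protein of astrocytes and neural stem cells, stood at 6.71, 6.96, 6.76 and 7.13 in IMO_FC 1 to 4, against 9.10 and 7.78 in FC 2 and FC 4 and 7.13 to 8.09 in HC. A second probe gave 0.12. Both Tax1bp3 probes were lower, by −1.48 and −1.34, whereas the brighter Ctage5 probes gave −0.30 and −0.39. Without IMO_FC 1 the 16 differences lay between −1.78 and −0.89 or between 1.13 and 1.59. Without FC 2 they reached from −1.83 to −0.68 and from 0.77 to 1.90.

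**Figure D4:**
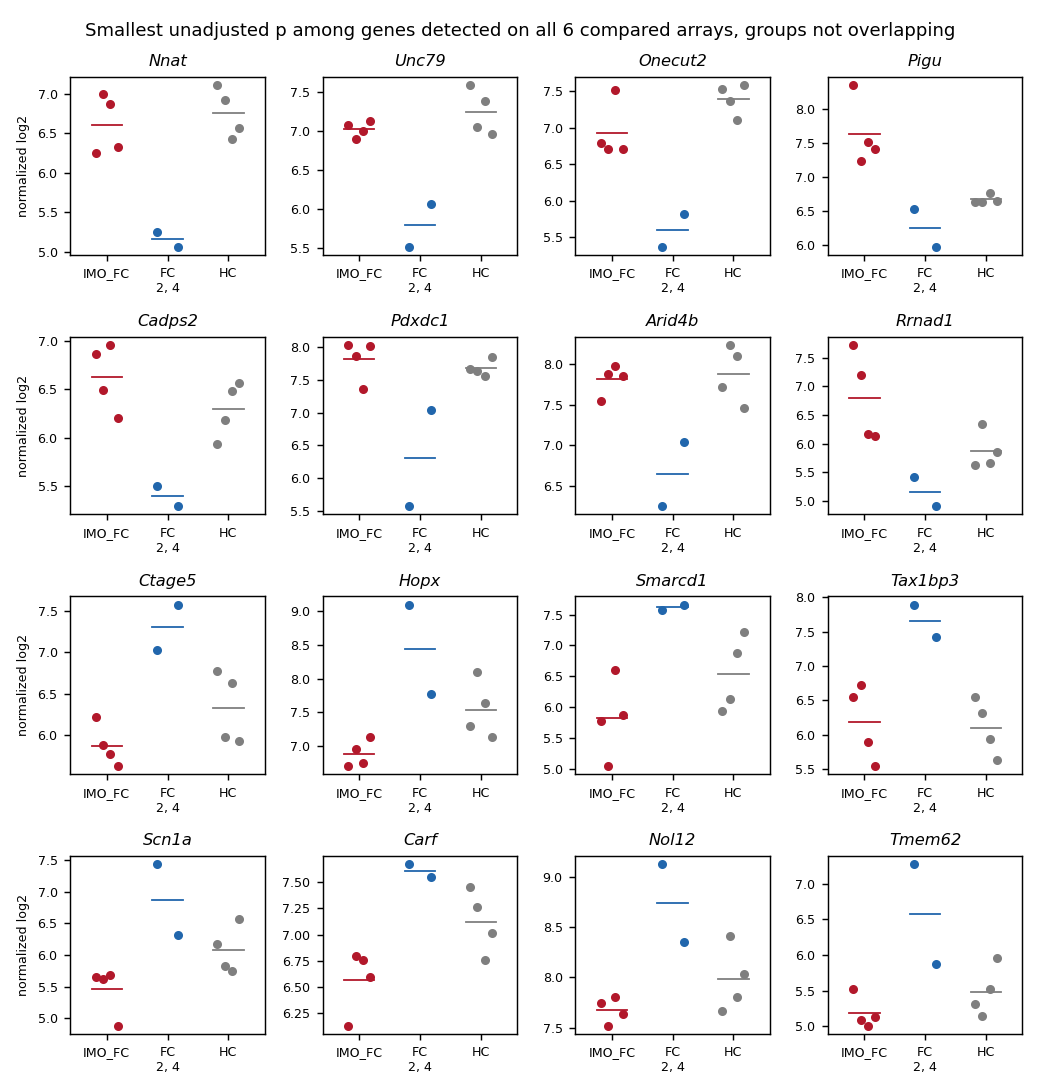
Normalized log2 intensity (y, a separate scale in each panel) of the 16 genes of smallest unadjusted p, among those detected on all 6 arrays, on each array of IMO_FC, FC 2 and FC 4, and HC; points are arrays and lines are group means. The genes were chosen for groups that do not overlap. The top 8 panels have IMO_FC above FC and the bottom 8 have IMO_FC below FC.

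No activity-dependent gene passed: of 37 tested, 22 had positive and 15 negative differences, and the median was 0.05. Over all 41 lists 18 of 713 tested genes had an unadjusted p under 0.05, as had 3.17% of all tested genes, and each of the 18 is described here. Fos, part of the AP-1 transcription factor, stood at 6.27, 5.84, 5.59 and 6.69 in IMO_FC 1 to 4, against 5.82 and 5.60 in FC 2 and FC 4 and 5.85 to 6.95 in HC. The groups overlapped, and the difference was 0.39 ± 0.377. Arc, which drives the removal of AMPA receptors from synapses, stood at 9.22, 6.92, 7.11 and 6.63 in IMO_FC, against 7.09 and 6.22 in FC. Its difference of 0.82 ± 0.669 was 0.23 without IMO_FC 1, the highest array, and 1.26 without FC 2. Egr1, a zinc finger transcription factor, differed by −0.12 ± 0.234, with all 10 arrays between 11.35 and 11.89. Npas4 was not tested because too few arrays detected it.

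Bdnf, the neurotrophin required for fear memory, was at 4.58, 6.16, 5.68 and 6.10 in IMO_FC 1 to 4, against 7.05 and 6.71 in FC 2 and FC 4 and 5.53 to 6.97 in HC. The probe was detected on 3 of the 4 IMO_FC arrays. All IMO_FC arrays were below both FC arrays, and the difference was −1.25 ± 0.502, or −0.89 without IMO_FC 1. It did not pass limma's test (adjusted p = 1, exact permutation p = 0.133). The dimmer Bdnf probes gave 0.13 ± 0.361 and −0.11 ± 0.622. Zfp36, which destabilizes mRNAs of inflammatory proteins, was at 4.52, 5.82, 5.38 and 5.91 in IMO_FC, against 6.59 and 6.51 in FC and 4.96 to 6.33 in HC (−1.14 ± 0.455, adjusted p = 1 by limma). Zfp36 too was detected on 3 of the 4 IMO_FC arrays. In the list 1 gene lay above FC on all IMO_FC arrays and 4 lay below, where 4.66% and 5.05% of all tested probes did so.

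Per1, a clock gene that glucocorticoids and neuronal activity both induce, was the one activity-dependent gene above FC on every IMO_FC array. It stood at 6.83, 6.61, 6.70 and 6.69 in IMO_FC 1 to 4, against 5.89 and 6.35 in FC 2 and FC 4. HC lay at 6.37 to 7.02, so FC was the low group. The difference was 0.59 ± 0.258 and did not pass limma's test (adjusted p = 1). The exact permutation p was 0.0667, and no lower value is possible with 4 arrays against 2. The dimmer Per1 probes gave −0.05 ± 0.408 and −0.18 ± 0.435.

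The promoters of Fos, Per1 and Dusp1 are shown because they carry the half-site of the cAMP response element, through which activity switches such genes on. The 250 bases before each start are from RefSeq (GRCm38.p6), 5′ to 3′ on the gene's strand: chr12:85473640-85473889 (+) for Fos, chr11:69099902-69100151 (+) for Per1 and chr17:26508473-26508722 (−) for Dusp1. Capitals mark TGACGT on either strand, where 2 matches on opposite strands overlap in the palindrome of Dusp1.
Fos promoter: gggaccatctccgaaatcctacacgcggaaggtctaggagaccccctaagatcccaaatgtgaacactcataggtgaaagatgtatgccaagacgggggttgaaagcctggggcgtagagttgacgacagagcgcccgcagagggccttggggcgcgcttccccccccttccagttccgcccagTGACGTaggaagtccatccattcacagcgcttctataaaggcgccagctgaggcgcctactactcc
Per1 promoter: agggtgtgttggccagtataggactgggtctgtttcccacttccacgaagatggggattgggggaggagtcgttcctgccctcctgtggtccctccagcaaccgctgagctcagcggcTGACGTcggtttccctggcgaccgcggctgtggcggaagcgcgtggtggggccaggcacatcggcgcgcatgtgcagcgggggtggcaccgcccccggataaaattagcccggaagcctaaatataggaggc
Dusp1 promoter: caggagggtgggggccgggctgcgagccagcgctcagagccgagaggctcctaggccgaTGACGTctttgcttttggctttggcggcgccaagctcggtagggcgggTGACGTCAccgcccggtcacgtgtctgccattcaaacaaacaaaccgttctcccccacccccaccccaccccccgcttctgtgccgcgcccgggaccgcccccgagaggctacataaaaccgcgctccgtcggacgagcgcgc
The motif occurred in 6.47% of 32851 such windows, and in 14 of 43 windows (32.6%) of the tested activity-dependent genes, which belong to 12 of 28 genes. The median difference between IMO_FC and FC was 0.10 for the 12 genes and 0.05 for the other 16. Dusp1, a phosphatase that ends MAP kinase signalling, stood at 9.08, 9.11, 8.58 and 8.61 in IMO_FC 1 to 4, against 8.29 and 8.95 in FC 2 and FC 4 (0.22 ± 0.338).

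Glucocorticoid-induced genes gave 15 higher and 22 lower of 37 tested, with a median of −0.13 and none called. Fkbp5, a cochaperone that damps the glucocorticoid receptor, stood at 7.51, 7.88, 8.17 and 7.71 in IMO_FC 1 to 4, against 8.21 and 7.69 in FC 2 and FC 4. HC lay at 6.96 to 7.60. Most arrays of both conditioned groups were above HC, but IMO_FC and FC overlapped, with a difference of −0.14 ± 0.295. Tsc22d3, which encodes the anti-inflammatory protein GILZ, stood at 10.15, 10.21, 10.30 and 10.34 in IMO_FC, against 10.00 and 10.29 in FC and 9.69 to 9.98 in HC. Its difference between IMO_FC and FC was 0.10 ± 0.223, with a 95% interval of −0.39 to 0.59, while a much dimmer probe gave 1.03 ± 0.343. Sgk1, a kinase induced by glucocorticoids, differed by 0.25 ± 0.429 and the receptor gene Nr3c1 by −0.30 ± 0.317. Mertk, a receptor for the uptake of dying cells, was lower on all IMO_FC arrays, at 6.36, 7.24, 7.31 and 7.50 against 7.99 and 8.27 in FC, a difference of −1.03 ± 0.367 that did not pass (adjusted p = 1 by limma).

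Of the opioid and nociceptin genes 4 were higher and 4 lower, with a median of −0.03. By its brightest probe Oprl1, the nociceptin receptor named in the series title, stood at 6.53, 7.54, 7.81 and 7.19 in IMO_FC 1 to 4, against 7.74 and 7.38 in FC 2 and FC 4. The difference was −0.29 ± 0.377. IMO_FC 1 was the low array, and the difference was −0.05 without IMO_FC 1 and −0.11 without FC 2. The 2 dimmer Oprl1 probes gave −0.51 ± 0.474 and −1.34 ± 0.471. All 4 tested tachykinin genes had positive differences, none of which passed, and their median was 0.68. Tac2, the neurokinin B precursor with a known part in fear memory, stood at 6.71, 5.97, 6.56 and 6.40 in IMO_FC, against 6.60 and 4.74 in FC 2 and FC 4 and 4.73 to 5.81 in HC. Its probe was detected on all 4 IMO_FC arrays but on only 1 of FC 2 and FC 4. FC 2 lay among the IMO_FC arrays and FC 4 among HC, and the difference was 0.74 ± 0.480. Its receptor gene Tacr3 gave 0.62 ± 0.760 and, without IMO_FC 1, 0.13. Tac1, the substance P precursor, gave 1.02 ± 0.564, or 0.55 without IMO_FC 1 and 0.40 without FC 2. Its receptor gene Tacr1 gave 0.43 ± 0.440, or −0.01 without FC 2. Leaving out FC 2, with FC 4 alone as the FC group, raised Tac2 to 1.68 and Tacr3 to 1.84. The median of the tachykinin genes was then 1.04, and 3 of the 4 were positive.

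Of 22 other stress neuropeptide and receptor genes tested 8 were higher and 14 lower, with a median of −0.09. The differences ranged from −0.64 for Adcyap1r1 to 2.09 for Avpr1a, and none had an unadjusted p under 0.05 by limma. Adcyap1, the PACAP precursor, gave −0.10 ± 0.445 and its receptor Adcyap1r1 −0.64 ± 0.454. Adcyap1r1 lay at 7.50 to 8.67 in IMO_FC, against 9.46 and 7.84 in FC 2 and FC 4, and without FC 2 its difference was 0.17. The other Adcyap1r1 probes, of about equal brightness, went the other way, at 1.20 ± 0.528 and 1.15 ± 0.547. The list's median was 0.12 without FC 2. Crh and Crhr1, for corticotropin-releasing hormone and its receptor, were not tested because too few arrays detected them.

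Genes of GABA synthesis and interneurons were balanced, with 8 higher, 9 lower and a median of −0.01. Gad1, which makes GABA, lay between 10.85 and 11.09 in IMO_FC, at 11.02 and 10.82 in FC 2 and FC 4 and between 10.87 and 11.01 in HC. Its difference was 0.08 ± 0.215, with a 95% interval of −0.39 to 0.56. Slc32a1, the vesicular GABA transporter, differed by 0.18 ± 0.218 and the interneuron peptide Sst by −0.16 ± 0.334. Dlx5, a transcription factor of GABAergic neurons, stood at 8.34, 7.92, 8.12 and 8.04 in IMO_FC 1 to 4, against 7.28 and 7.59 in FC 2 and FC 4 (0.67 ± 0.269, adjusted p = 1 by limma). All IMO_FC arrays were higher, and HC lay between 7.46 and 8.21, but a dimmer Dlx5 probe gave −0.61 ± 0.367.

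GABA receptor genes lay mostly lower in IMO_FC without passing. Of 9 genes of GABA-A receptors 3 were higher and 6 lower, with a median of −0.34 that was −0.19 without IMO_FC 1 and −0.16 without FC 2. Of 4 genes of GABA-B receptors 1 was higher and 3 lower, with a median of −0.42 that was −0.14 without FC 2. Gabbr1, a subunit of the GABA-B receptor, stood at 9.44, 9.36, 9.52 and 9.09 in IMO_FC 1 to 4, against 10.10 and 9.59 in FC 2 and FC 4 and 9.20 to 9.41 in HC (−0.49 ± 0.245). Gabbr2, the other subunit, stood at 6.69, 8.24, 7.88 and 7.73 in IMO_FC, against 9.55 and 7.94 in FC and 7.97 to 8.73 in HC (−1.11 ± 0.505). In both genes FC 2 was the highest array, and without it the differences were −0.23 and −0.31.

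Endocannabinoid genes gave 2 higher and 9 lower of 11, with a median of −0.30 that was −0.26 without FC 2. Dagla, which makes the endocannabinoid 2-AG, stood at 4.86, 5.52, 5.46 and 5.31 in IMO_FC 1 to 4, against 6.40 and 5.83 in FC 2 and FC 4 and 5.02 to 5.81 in HC. It was detected on 3 of the 4 IMO_FC arrays. All IMO_FC arrays were below both FC arrays (−0.83 ± 0.322, adjusted p = 1 by limma). Faah, which degrades anandamide, gave −0.53 ± 0.457, the receptor gene Cnr1 −0.30 ± 0.426 (0.40 on a dimmer probe) and Mgll, which degrades 2-AG, −0.08 ± 0.317.

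Of 27 presynaptic genes 24 were lower in IMO_FC, but by little: the median was −0.12, 16 had an interval within 2-fold and none passed. Syp, a synaptic vesicle protein, lay between 12.04 and 12.17 in IMO_FC and at 12.18 and 12.17 in FC 2 and FC 4 (−0.07 ± 0.210). Without FC 2 the list had 13 genes higher and 14 lower. Of 23 postsynaptic genes 17 were lower, with a median of −0.16 that was −0.05 without FC 2. Lrrtm1, a synaptic adhesion protein, stood at 5.79, 4.73, 5.28 and 4.85 in IMO_FC 1 to 4, against 6.19 and 6.07 in FC (−0.97 ± 0.349, adjusted p = 1 by limma). It was detected on 3 of the 4 IMO_FC arrays. Camk2a, the memory-related kinase, was at 7.06 on IMO_FC 1 and 9.78 to 9.82 on the other 3 IMO_FC arrays, against 9.50 and 10.49 in FC, so its difference of −0.88 ± 0.740 became −0.19 without IMO_FC 1. Ionotropic glutamate receptor genes had a median of 0.07, with 12 higher and 5 lower, and 0.28 without FC 2.

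Among 20 monoamine and acetylcholine genes 11 were higher and 9 lower, with a median of 0.02. Ache, which breaks down acetylcholine and has a known stress response, stood at 4.34, 4.45, 5.30 and 5.92 in IMO_FC 1 to 4, against 7.52 and 5.87 in FC 2 and FC 4 and 4.42 to 6.22 in HC. The probe was detected on only 2 of the 4 IMO_FC and 2 of the 4 HC arrays, so its lowest values were not above background. FC 2 was far above the rest, and IMO_FC 4 was level with FC 4. The difference of −1.69 ± 0.641 did not pass (adjusted p = 1 by limma) and was −0.87 without FC 2. A second Ache probe, of like brightness, gave 0.23 ± 0.361. Htr5a, a serotonin receptor, stood at 5.56, 5.27, 5.57 and 5.15 in IMO_FC, against 4.74 and 4.59 in FC and 4.40 to 4.92 in HC. It was detected on all 4 IMO_FC arrays and on neither FC 2 nor FC 4, where it was not above background, so it passed the filter through IMO_FC alone and no fold is given.

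Markers of amygdala subregions and of neighbouring tissue gave the following. Basolateral and cortical markers had 4 higher and 16 lower of 20, with a median of −0.26. Neurod2, a transcription factor of cortical excitatory neurons, stood at 7.17, 7.14, 6.90 and 7.07 in IMO_FC 1 to 4, against 8.09 and 7.21 in FC 2 and FC 4 (−0.58 ± 0.279, and −0.14 without FC 2). Without FC 2 the list had 9 higher and 11 lower. Striatal markers had a median of 0.24 with 9 higher and 7 lower, and −0.21 without FC 2. Central amygdala markers had a median of 0.06 with 7 higher and 6 lower, against 0.28 with 11 higher and 2 lower without FC 2 and 0.24 without IMO_FC 1. Gpr101, an orphan receptor, stood at 6.99, 7.58, 7.92 and 7.82 in IMO_FC, against 6.24 and 6.68 in FC and 6.41 to 8.26 in HC (1.12 ± 0.457, adjusted p = 1 by limma). Leaving out FC 2 thus moved the basolateral and central amygdala medians up and the striatal median down, and the part of dissection in the differences above was not tested.

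Of 35 potassium channel genes 12 were higher and 23 lower, with a median of −0.14, and of 18 circadian genes 6 were higher and 12 lower, with a median of −0.06 that was 0.10 without FC 2. Of 30 genes for histone and DNA modifiers 17 were higher and 13 lower, with a median of 0.13, and none passed in any of these lists.

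**Figure D5:**
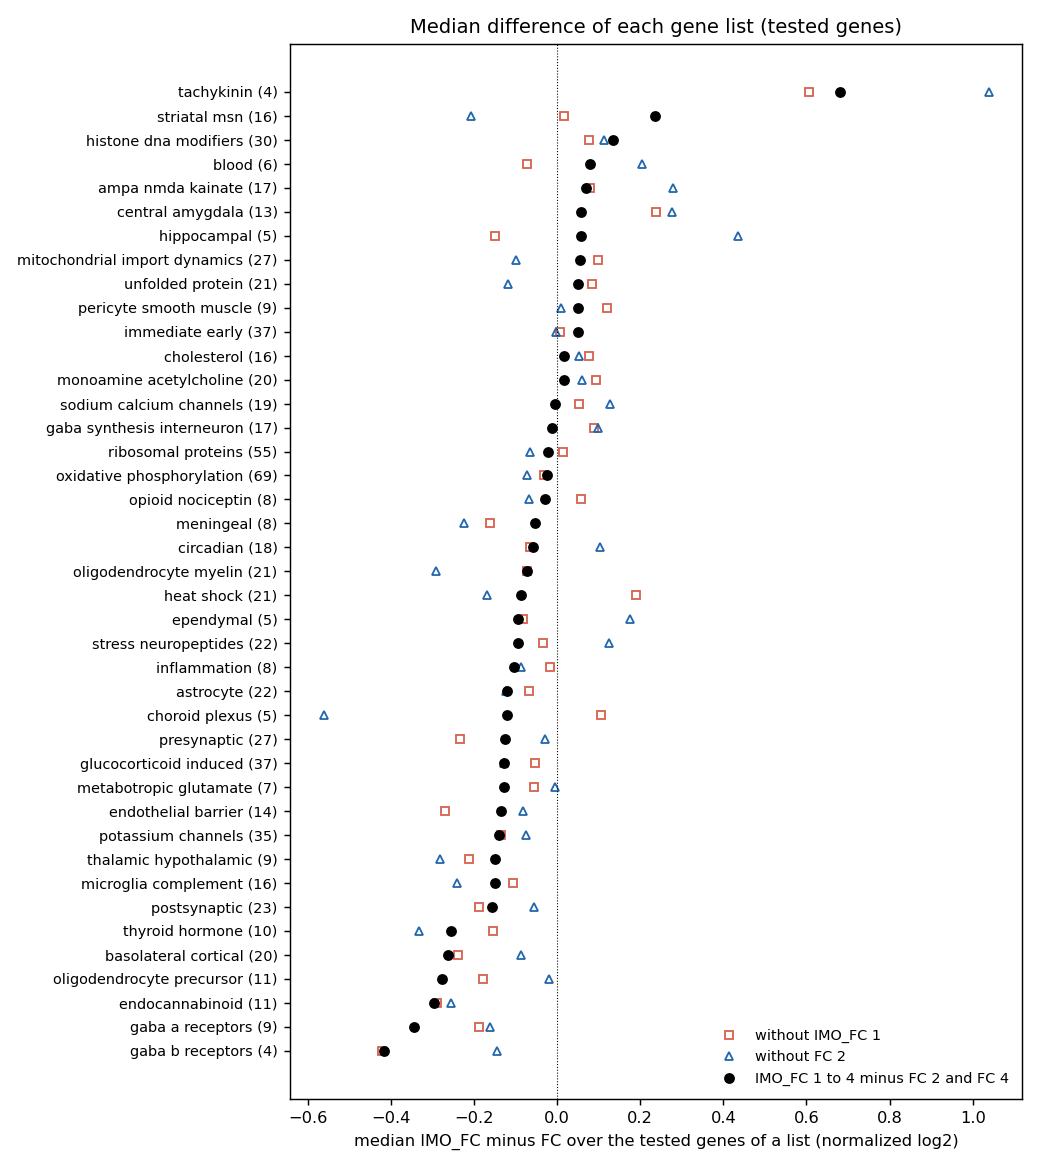
Median difference IMO_FC minus FC (x, normalized log2) over the tested genes of each of 41 gene lists, with the number of tested genes in brackets; filled circles use IMO_FC 1 to 4 and FC 2 and FC 4, squares leave out IMO_FC 1 and triangles leave out FC 2. The tachykinin median of 0.68 rests on 4 genes. The striatal median changes sign when FC 2 is left out and the heat shock median when IMO_FC 1 is left out. Other lists also change sign, such as circadian and unfolded protein genes without FC 2.

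Glial and vascular lists had medians of −0.28 to 0.05. Of 22 astrocyte genes 6 were higher and 16 lower, with a median of −0.12, and Slc1a2, the main astrocyte glutamate transporter, differed by −0.07 ± 0.219. Of 21 myelin genes 9 were higher and 12 lower, with a median of −0.07, but 3 higher and 18 lower with a median of −0.29 without FC 2. Trf, the iron carrier made by oligodendrocytes, stood at 8.93, 8.86, 9.17 and 9.06 in IMO_FC 1 to 4, against 7.01 and 8.89 in FC 2 and FC 4, so its difference of 1.05 ± 0.432 rested on FC 2 and was 0.11 without it. Esam, an endothelial adhesion protein, stood at 9.43, 8.44, 8.04 and 8.18 in IMO_FC, against 7.01 and 7.72 in FC (1.16 ± 0.439, adjusted p = 1 by limma), while Cldn5, a tight-junction protein of the same cells, differed by 0.08 ± 0.312.

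Genes of cell stress and metabolism lay close to 0. Of 21 genes of the unfolded protein response 12 were higher and 9 lower, with a median of 0.05, but 7 higher and 14 lower with a median of −0.12 without FC 2. Creld2, a chaperone of the endoplasmic reticulum, stood at 7.96, 7.63, 7.63 and 7.68 in IMO_FC 1 to 4, against 6.47 and 7.12 in FC 2 and FC 4 and 7.03 to 7.65 in HC (0.93 ± 0.279, adjusted p = 1 by limma). Manf, secreted under the same stress, gave 0.76 ± 0.325, and 0.26 without FC 2. Hspa5, the central chaperone of that response, gave 0.26 ± 0.436. Heat shock genes had 5 higher and 16 lower of 21, with a median of −0.09, but 14 higher and 7 lower with a median of 0.19 without IMO_FC 1.

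Oxidative phosphorylation was the most tightly measured group: of 69 genes 27 were higher and 42 lower, the median was −0.02, and 57 had an interval within 2-fold. Atp5b, a subunit of ATP synthase, lay between 11.49 and 11.54 in IMO_FC, at 11.48 and 11.55 in FC 2 and FC 4 and between 11.49 and 11.73 in HC. Of 55 ribosomal protein genes 26 were higher and 29 lower, with a median of −0.02. By its brighter probe Rpl4 stood at 6.87, 6.96, 6.69 and 6.77 in IMO_FC 1 to 4, against 7.62 and 7.65 in FC and 7.45 to 7.97 in HC, so IMO_FC was the low group (−0.82 ± 0.246, adjusted p = 1 by limma). The other Rpl4 probe gave −0.25 ± 0.341. Msto1, a protein of mitochondrial distribution, stood at 7.37, 6.02, 6.28 and 6.45 in IMO_FC, against 5.58 and 5.20 in FC and 4.46 to 5.08 in HC (1.14 ± 0.368, adjusted p = 1 by limma). It was detected on FC 2 and FC 4 but on only 1 of the 4 HC arrays.

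With all 4 FC arrays limma again called 0 of 20862 probes (0%), with a lowest adjusted p of 0.338, but 3023 probes (14.5%) had an unadjusted p under 0.05, 2458 higher and 565 lower in IMO_FC. The median over genes was 0.40 and 66.5% of genes were higher and 33.5% lower in IMO_FC, so a positive difference below that value is below the average gene. Gad1, at 0.08 without FC 1 and FC 3, was at 3.25 with them. Nnat, Unc79 and Nol12 turned sign, at −0.37, −0.53 and 0.60. Only 5.32% of genes had an interval within 2-fold.

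The genes named for the all-array comparison, picked for groups that do not overlap (2.71% of tested probes, 2.1% higher and 0.609% lower), were Avl9, Nap1l4 and Psme3ip1, higher, and Olfr380, Focad and Dlst, lower in IMO_FC. Olfr380, an olfactory receptor gene, stood at 5.75, 5.68, 5.82 and 5.72 in IMO_FC 1 to 4, against 9.18, 7.51, 8.78 and 6.51 in FC 1 to 4 (−2.25 ± 0.571, adjusted p = 0.338 by limma). FC 1 and FC 3 were the highest only after normalization. Their deposited signals were 53.5 and 98.5, against 242 and 154 on FC 2 and FC 4 and 58.8 to 121 in IMO_FC. Against FC 2 and FC 4 alone the difference was −1.32 ± 0.471. Focad gave −2.12 ± 0.541 and −1.15 ± 0.353 in the same pair of fits, and Dlst, a subunit of the 2-oxoglutarate dehydrogenase complex, −1.88 ± 0.516 and −1.58 ± 0.566. Their deposited signals on FC 1 and FC 3, 48.0 and 83.5 for Focad and 44.3 and 66.2 for Dlst, were also below those on FC 2 and FC 4. These are dim probes: a brighter Focad probe gave 1.52 and 0.69, and the brightest Dlst probes gave 2.33 each with all arrays and −0.36 and −0.31 against FC 2 and FC 4. Avl9 gave 1.23 ± 0.472 and 0.37 ± 0.275, Nap1l4, a histone chaperone, 0.98 ± 0.440 and 0.23 ± 0.213, and Psme3ip1 0.84 ± 0.397 and 0.44 ± 0.235. These 6 probes were picked for FC values, FC 2 and FC 4 among them, that all lay on one side of IMO_FC. Their shared sign in both fits followed from that choice and is not separate support. The differences were smaller in size against FC 2 and FC 4. In neither fit did limma call any of the 6 (adjusted p = 0.338 and 1).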

How the data were processed

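Illumina mouse bead arrays measured RNA. Per the file headers, the deposited non-normalized table holds an intensity and a detection p-value per probe and array. The authors also deposited a normalized intensity table, whose method is not given in the sources used here, used as an alternative. Per the labels' protocols, RNA was purified with a Qiagen kit.

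limma's neqc corrected the background from the detection p-values, then quantile normalized the signals to log2 values (limma 3.58.1, R 4.3.3, offset 16). A probe was tested if detected (p under 0.05) on 4 or more of the 8 compared arrays. Of 45281 probes 34885 had 1 gene symbol, 18 several and 10378 none, and 10713 genes were tested. limma fitted a mean per group over 10 arrays (12 with FC 1 and FC 3), and the Benjamini-Hochberg adjustment ran across every probe tested. Values after ± are SE. A gene's brightest probe stands for it in lists. Genes were named as the 8 of smallest p in each direction (3 with all arrays) among probes detected on all compared arrays whose groups do not overlap, as main genes of the lists, and as list genes at unadjusted p under 0.05. The comparison, lists and named genes were chosen with earlier results of these data known. The procedure was tested on simulated data. The number of arrays limits the precision. Deviations of same-numbered IMO_FC and FC arrays from their group means correlated at 0.11, 0.09, −0.11 and 0.23. These include FC 1 and FC 3, which detected little, so they cannot show whether replicate numbers pair those samples. For same-numbered IMO_FC and HC arrays the values were 0.04, −0.02, 0.09 and 0.03. Other background corrections, scalings, filters, weights, blocks and left-out arrays were tried. A slide block was not fitted because no slide is named.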

Additional observations from a re-analysis of the deposited data

Results flagged for a closer look

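Of 188 groups of 4 arrays examined over 91 genes and the share of probes detected, 11 had 1 array far from the other 3 by Dixon's criterion. Chance alone gives about 1 in 20 such groups. On IMO_FC 1 there were 8 of the 11. The share of probes detected was 39.0% on IMO_FC 1 and 49.6% to 50.7% on IMO_FC 2 to 4. Among genes of neurons on IMO_FC 1, Gad2 stood at 9.37 normalized log2 (11.72 to 11.76 on the other 3), Gria2 at 9.82, Camk2a at 7.06 and Snap25 at 9.75. The chaperones Hspa5 and Hspa8 were low there too, at 9.55 and 11.8, and Creld2 was high at 7.96. Other genes of neurons were not low there: Gad1 was at 11.08, among the other arrays, and Syt1 at 11.91, Slc17a7 at 9.35, Dlg4 at 9.42, Gabrb2 at 10.11 and Scn2a at 10.55 were at their highest within IMO_FC. Onecut2 was high on IMO_FC 3 at 7.51, Scn1a low on IMO_FC 4 at 4.88 and Pigu high on HC 3 at 6.76.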

How the results depend on the processing

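Against FC 2 and FC 4, 0 probes were called under 17 alternatives, among them no background correction, median scaling, cyclic loess, the authors' values, array weights and each array left out. The exceptions were 3 calls with no detection filter (Cd180, Ppp4r1l-ps and a probe with no gene name), 2 with detection on at least 2 compared arrays, and 1 without IMO_FC 1 and FC 2, a setting added after the values were seen. That call was Cdh1, a cell adhesion protein, at −2.85 (adjusted p = 0.0485 by limma), where the left-out IMO_FC 1 at 7.71 and FC 4 at 7.69 were the high arrays and the other 8 lay between 4.59 and 4.96. Calls with each array left out ranged from 0 to 0 against FC 2 and FC 4, and from 0 to 42 with all arrays, the 42 without FC 4 (38 higher, 4 lower). The other 20 alternatives with all arrays gave 0. The probes at an unadjusted p under 0.05, 729 against FC 2 and FC 4, were 267 without FC 2, 2030 without FC 4 and 1222 without IMO_FC 1; the cause was not tested. With the replicate block 0 probes were called and 582 had an unadjusted p under 0.05. With the wider filter, the block took Cd180 to −3.16 (adjusted p = 0.0725 by limma) and the fit of compared arrays alone to −3.07 (0.144); this combination of choices was added after the values were seen. Only 2 usable FC arrays, and detection on them, limit what could be found.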
